A study of Mus musculus with 6 samples.

Results

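The guanylate-binding proteins are a family of large GTPases encoded by the Gbp genes. The family was taken here as all genes whose symbol begins with Gbp and a digit, among probe sets that the array's annotation gives exactly 1 gene symbol, and it had 10 members of the 22180 genes measured: Gbp5, Gbp7, Gbp3 and Gbp2b on mouse chromosome 3, and Gbp8, Gbp9, Gbp4, Gbp10, Gbp6 and Gbp11 on chromosome 5. Each member was measured by 1 probe set. Gbp2 shared its probe set with Gbp2b in the annotation and was left out by that rule. Gbp11 was already known to be lowered in these arrays when the family was proposed, so Gbp11 was chosen by its HDM minus PBS difference, which is a description and is given without a test. The other 9 members entered by their symbols, and their adjusted p-values come from the fit across all 22180 genes.

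Both groups were CD4 T cells sorted from digested lungs of wild-type mice, as CD45+ CD4+ cells that lacked the myeloid protein CD11b and the macrophage protein F4/80. In the HDM group, 3 samples came from mice sensitised to and challenged with house dust mites, an allergen that provokes allergic airway inflammation. The PBS group, also 3 samples, came from mice given the saline vehicle. Strain, age, dose, times and the number of mice behind each sample were not stated in the labels, and p-values therefore measure the spread between these samples. Each sample was hybridised to 1 Affymetrix Mouse Gene 2.0 ST array, a whole-transcript design, and values are log2 signals that the authors made with RMA. Array medians lay between 6.57 and 6.64, and the number of arrays limits the precision of every value. No detection call was used here, so a low signal could not be told from background.

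Interferon gamma binds the receptor encoded by Ifngr1 and Ifngr2, and signalling through the kinases JAK1 and JAK2 then induces the transcription factor IRF1 and most guanylate-binding proteins. The proteins gather on vacuoles that hold bacteria or parasites and on bacterial surfaces, together with a second family, the immunity-related GTPases, and they promote inflammasome activation. Expression in T cells is known mainly as part of the interferon response. The mouse genes lie in gene runs on chromosomes 3 and 5 and are close copies of each other. A probe set of a member may therefore also catch transcripts of another, and members on both chromosomes are reported with that uncertainty.

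Gbp11 had the lowest difference between HDM and PBS of the 10 members. Its log2 signals were 7.26, 7.23 and 7.69 in HDM arrays 1, 2 and 3, against 9.01, 8.87 and 9.20 in the PBS arrays. All HDM values lay below all PBS values, and the highest HDM value was replicate 3, which was also the highest replicate of the PBS group. The mean was 7.39 ± 0.26 in HDM and 9.03 ± 0.17 in PBS (SD, n = 3 each), a log2 difference of −1.64 ± 0.15 (SE), or a signal 3.11-fold higher in PBS than in HDM. Among the 22180 genes, 1 had a lower difference, Inmt (−1.66), a methyltransferase that was looked up after its value was seen. With bulk samples, fewer cells that express a gene and less RNA of it per cell cannot be told apart. In the RefSeq annotation of GRCm38.p6, Gbp11 is listed as a transcribed pseudogene, whereas the other 9 members are listed as protein coding.

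**Figure D1:**
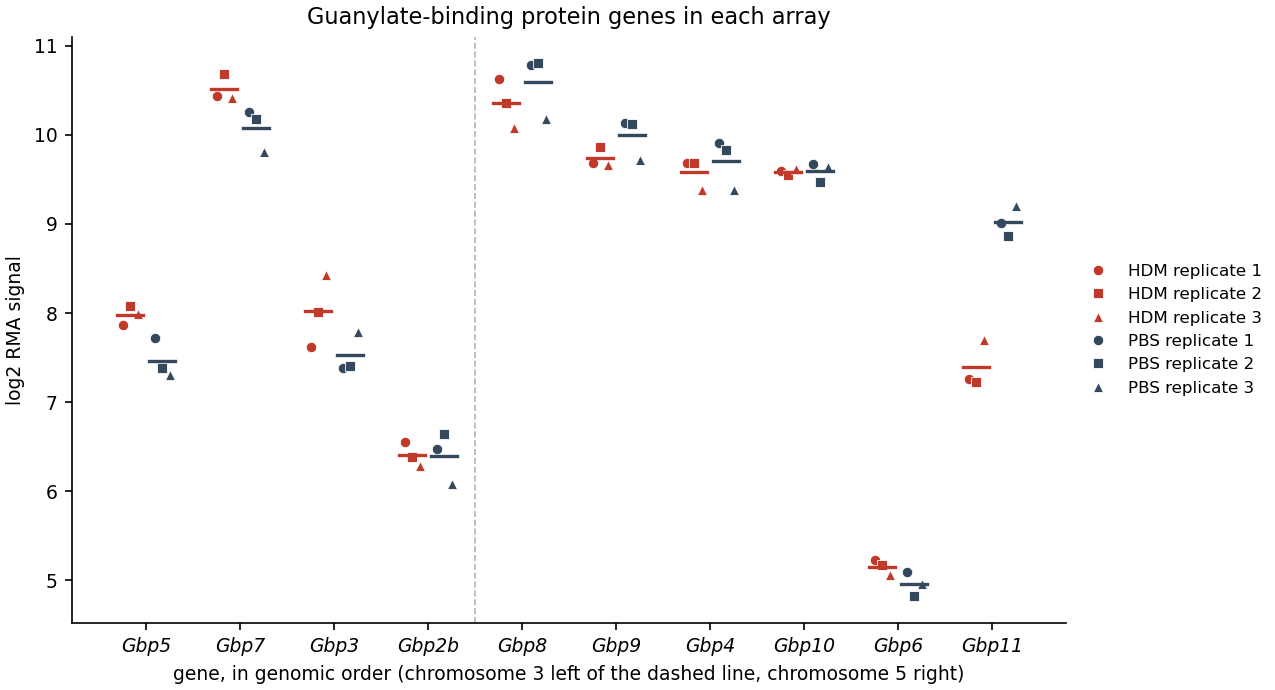
Log2 RMA signal (vertical axis) of the 10 guanylate-binding protein genes (horizontal axis, genomic order) in each of 3 HDM arrays (red, left) and 3 PBS arrays (dark blue, right); marker shape gives the replicate number and the bar the group mean. Gbp11 lies between 7.23 and 7.69 in HDM and between 8.87 and 9.20 in PBS, while the groups of most other members overlap.

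None of the other 9 members passed limma at an adjusted p below 0.05. At an unadjusted p below 0.05 there were 3, Gbp5, Gbp7 and Gbp3, where 17.8% of all genes reached that level. Over all genes 3.95% were called, 2.39% higher and 1.56% lower, and with so few members a count of 0 of 9 is near that background. Of the 9, 2 had all HDM values above all PBS values, as 10.8% of all genes did, and 0 had all HDM values below, as 11.8% of all genes did, so 2 of 9 did not overlap, against 22.6% of all genes. The differences of the 9 ran from −0.26 to 0.51 with a median of 0.01, beside a median of −0.01 over all genes. Each of them exceeded the difference of Gbp11 by between 1.38 (Gbp9) and 2.15 (Gbp5) on the log2 scale. Since Gbp11 was picked for its difference, these gaps carry no test.

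On chromosome 3, Gbp5, whose product promotes inflammasome assembly, had signals of 7.86, 8.08 and 7.99 in HDM arrays, against 7.72, 7.38 and 7.30 in PBS arrays. The groups did not overlap, and the lowest HDM value and the highest PBS value, both of replicate 1, lay closest. The difference was 0.51 ± 0.13 (SE), 95% interval 0.21 to 0.81, with limma's adjusted p = 0.0813. Gbp7, which is known for roles in autophagy and antimicrobial oxidative defence, had 10.44, 10.68 and 10.42 in HDM arrays, against 10.25, 10.18 and 9.81 in PBS arrays. Here too the groups did not overlap, and PBS replicate 3 was lowest. Its difference was 0.43 ± 0.14, interval 0.12 to 0.75, with limma's adjusted p = 0.141.

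Gbp3, a member of the same run, had 7.61, 8.01 and 8.43 in HDM arrays, against 7.39, 7.41 and 7.79 in PBS arrays. The groups overlapped, because HDM replicate 1 was below PBS replicate 3, and in both groups replicate 3 was highest. The difference was 0.49 ± 0.21, interval 0.01 to 0.97, with limma's adjusted p = 0.271. In all 3 pairs of same-numbered arrays the 3 genes were higher in HDM, by 0.15, 0.70 and 0.69 for Gbp5, by 0.19, 0.50 and 0.61 for Gbp7 and by 0.23, 0.60 and 0.64 for Gbp3. The pair numbered 1 gave the lowest of these differences for each gene. Without HDM replicate 3 the difference of Gbp3 was 0.28, and with any 1 array left out it ran from 0.28 to 0.69. With the replicate number as a block, the 3 genes passed, with limma's adjusted p = 0.0415 for Gbp5, 0.025 for Gbp7 and 0.028 for Gbp3. The block raised calls in general: 12% of all genes were called with it, and 5.95% were called higher. The labels state no such pairing of arrays.

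Gbp2b, also called Gbp1 in older annotation, was the fourth measured member on chromosome 3, and its difference was near 0. It had 6.55, 6.39 and 6.29 in HDM arrays, against 6.47, 6.64 and 6.07 in PBS arrays. The HDM values lay within the PBS range, and replicate 3 was lowest in both groups. Its difference was 0.01 ± 0.15, interval −0.34 to 0.37, with limma's adjusted p = 0.978 and 0.962 with the block. The sign of so small a difference depended on single arrays. Over all arrays, Gbp5, Gbp7 and Gbp3 had positive differences of 0.43 to 0.51 and Gbp2b 1 near 0, and a test of the gap between them was not made.

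Promoters were matched for 4 of the 10 members by symbol in a RefSeq table of GRCm38.p6, which gives 250 bases before and 50 bases after an annotated start. For Gbp3 and Gbp2b that start lies downstream of the first base of the gene (142560016 and 142594816). Distances below are from the start that each window is built on. These 4 are all the members with an entry there, so no chromosome 5 member, Gbp11 included, could be looked at. Of the 4, 3 had like differences in HDM and the fourth had not. The windows are chr3:142496684-142496983 for Gbp5, chr3:142530086-142530385 for Gbp7, chr3:142559794-142560093 for Gbp3 and chr3:142594597-142594896 for Gbp2b, all on the plus strand. Capitals mark the core of the interferon-stimulated response element (ISRE), searched as TTTC, any 2 bases and TTTC on the printed strand, or GAAA, any 2 bases and GAAA for the other strand. They also mark the gamma-activated site (GAS), an element found in genes that interferon gamma induces, searched as TTC, any 3 bases and GAA, which reads the same on both strands.
Gbp5: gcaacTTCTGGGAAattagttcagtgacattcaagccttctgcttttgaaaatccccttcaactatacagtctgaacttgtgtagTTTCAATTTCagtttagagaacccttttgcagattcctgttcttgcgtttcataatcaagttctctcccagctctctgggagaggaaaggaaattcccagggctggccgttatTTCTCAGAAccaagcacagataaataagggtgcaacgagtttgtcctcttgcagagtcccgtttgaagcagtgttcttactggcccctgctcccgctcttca
Gbp7: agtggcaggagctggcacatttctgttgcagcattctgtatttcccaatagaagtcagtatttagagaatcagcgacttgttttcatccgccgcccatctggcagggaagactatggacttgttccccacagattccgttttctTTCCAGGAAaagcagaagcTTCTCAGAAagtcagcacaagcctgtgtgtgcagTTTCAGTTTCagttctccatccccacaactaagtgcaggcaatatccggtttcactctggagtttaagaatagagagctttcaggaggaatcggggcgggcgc
Gbp3: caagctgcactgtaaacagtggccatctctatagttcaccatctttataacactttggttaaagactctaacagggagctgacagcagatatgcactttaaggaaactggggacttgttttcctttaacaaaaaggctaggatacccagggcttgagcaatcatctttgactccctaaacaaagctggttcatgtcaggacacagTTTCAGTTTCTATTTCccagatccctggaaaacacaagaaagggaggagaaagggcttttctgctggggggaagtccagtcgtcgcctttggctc
Gbp2b: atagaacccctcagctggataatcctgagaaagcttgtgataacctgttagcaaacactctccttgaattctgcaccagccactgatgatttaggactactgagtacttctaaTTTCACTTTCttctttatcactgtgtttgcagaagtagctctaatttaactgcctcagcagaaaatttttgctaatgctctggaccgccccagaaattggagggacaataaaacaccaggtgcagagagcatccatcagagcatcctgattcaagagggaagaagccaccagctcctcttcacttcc

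Each of the 4 windows held an ISRE core. It began 165 bases before the start of Gbp5 (TTTCAATTTC), 53 before that of Gbp7 (TTTCAGTTTC) and 137 before that of Gbp2b (TTTCACTTTC). Gbp3 held 2 overlapping matches, 45 and 39 bases before the start, and the window of a second annotated start of Gbp3 held neither motif. GAS matches lay 245 and 52 bases before the start of Gbp5 and 106 and 87 bases before that of Gbp7, and none overlapped an ISRE core. No GAS match was found in the Gbp3 or Gbp2b windows. Of 32851 promoter windows of the same length in the table, 3.44% held the ISRE core and 8.30% held GAS. Gbp2b thus carried the same kind of ISRE letters as the 3 genes with positive differences, and these matches are descriptions of letters only.

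The 5 other members on chromosome 5 had small differences, 4 negative and 1 positive, and their group values overlapped in every case. Gbp8, the outermost member of the run, had 10.63, 10.36 and 10.07 in HDM arrays, against 10.79, 10.80 and 10.18 in PBS arrays. Replicate 3 was lowest in both groups. The difference was −0.24 ± 0.20, interval −0.69 to 0.22, with limma's adjusted p = 0.616. Gbp9 had 9.69, 9.86 and 9.67 in HDM arrays, against 10.14, 10.13 and 9.72 in PBS arrays, so that only PBS replicate 3 fell inside the HDM range. Its difference was −0.26 ± 0.13, interval −0.56 to 0.04, with limma's adjusted p = 0.364.

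Gbp4 had 9.68, 9.69 and 9.38 in HDM arrays, against 9.91, 9.83 and 9.38 in PBS arrays. As in Gbp8 and Gbp9, replicate 3 was the lowest of each group. The difference was −0.12 ± 0.16, interval −0.49 to 0.24, with limma's adjusted p = 0.765. In the pairs of arrays, Gbp8 and Gbp9 were lower in HDM in all 3, with differences of −0.15, −0.44 and −0.11 for Gbp8 and −0.45, −0.27 and −0.06 for Gbp9, and Gbp4 was lower in 2 of 3. None of the 3 passed with the replicate block, at limma's adjusted p = 0.114 for Gbp8, 0.112 for Gbp9 and 0.369 for Gbp4. With 1 array left out the difference ran from −0.44 (without PBS replicate 3) to −0.093 (without HDM replicate 3) for Gbp8, from −0.39 (without PBS replicate 3) to −0.19 for Gbp9, and from −0.29 (without PBS replicate 3) to −0.022 (without HDM replicate 3) for Gbp4. These 3 genes carried the sign of Gbp11, and their differences lay 1.38 to 1.51 above its own.

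Gbp10 and Gbp6 lie between them and Gbp11, and Gbp6 is the gene next to Gbp11 in the RefSeq order. Gbp10 had 9.59, 9.55 and 9.62 in HDM arrays, against 9.67, 9.47 and 9.64 in PBS arrays. Its 6 values spanned the narrowest range of any member, and its difference was −0.01 ± 0.09, interval −0.22 to 0.20, with limma's adjusted p = 0.98. Repeated quantile normalization turned that sign, to 0.019. Gbp6 had 5.22, 5.16 and 5.05 in HDM arrays, against 5.09, 4.82 and 4.96 in PBS arrays. It was the dimmest probe set of the family, its mean fell below the 25th percentile of gene means, and its difference was 0.19 ± 0.10, interval −0.03 to 0.41, with limma's adjusted p = 0.369. With 1 array left out it ran from 0.12 (without PBS replicate 2) to 0.26. Gbp6 was higher in HDM in all 3 pairs of same-numbered arrays, by 0.13, 0.35 and 0.09. Of the 9 members other than Gbp11, 4 were higher in all 3 pairs and 2 were lower in all 3. The share of all genes with the same sign in all 3 pairs was not counted, so these counts have no background.

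**Figure D2:**
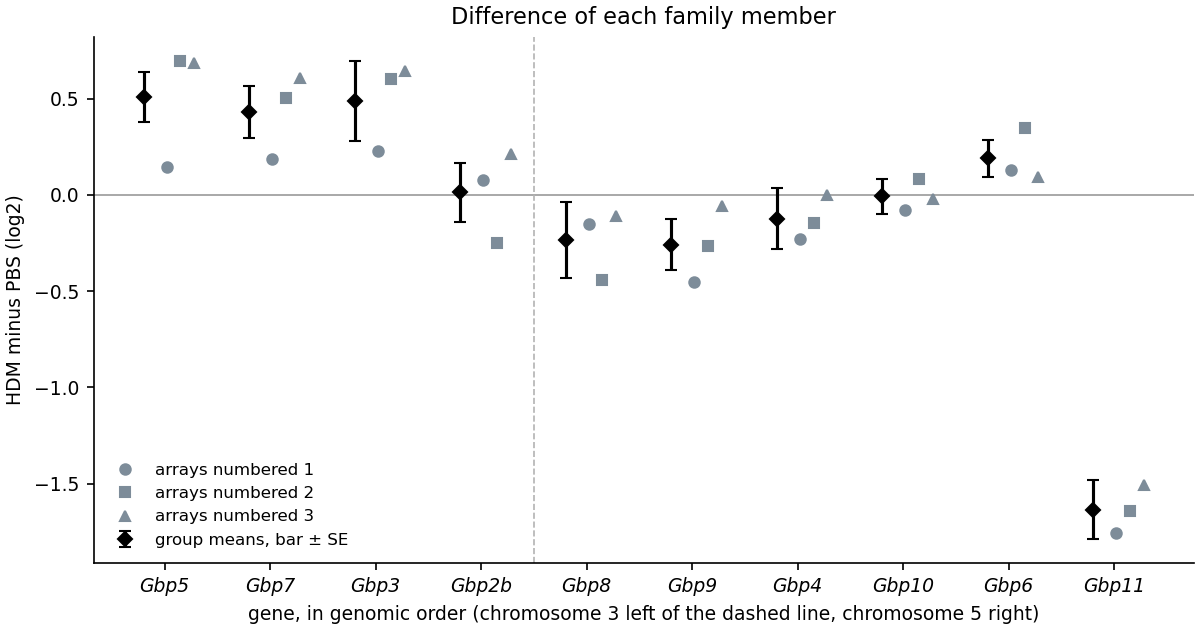
HDM minus PBS difference of each member on the log2 scale (vertical axis) in genomic order (horizontal axis); black diamonds are differences of group means with SE bars, and grey markers are the differences within pairs 1, 2 and 3 of same-numbered arrays. Gbp5, Gbp7 and Gbp3 lie between 0.43 and 0.51, Gbp11 at −1.64, and the remaining members between −0.26 and 0.19.

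The pairs of arrays gave like values for Gbp11, −1.76 for number 1, −1.64 for number 2 and −1.51 for number 3. Leaving out any 1 array kept the difference between −1.79 and −1.55. The nearest named gene on each side of the 2 runs was taken, with predicted genes and small RNAs passed over, and none of these flanking genes passed. Before the chromosome 5 run, Abcg3, a transporter gene, differed by −0.05 ± 0.24 (limma's adjusted p = 0.947). After that run, on the side of Gbp11, Lrrc8b, a subunit of volume-regulated anion channels, differed by −0.16 ± 0.23 (limma's adjusted p = 0.792). Around the chromosome 3 run, Pdlim5, a scaffold protein gene, differed by −0.22 ± 0.09 (limma's adjusted p = 0.256) and Kyat3, a kynurenine aminotransferase gene, by 0.21 ± 0.19 (limma's adjusted p = 0.658). All HDM values of Pdlim5 lay below its PBS values, as in 11.8% of all genes, and limma's unadjusted p was 0.043. An unadjusted p below 0.05 was reached by 17.8% of all genes. None of the 4 flanking genes had a difference beyond 0.22 in size.

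**Figure D3:**
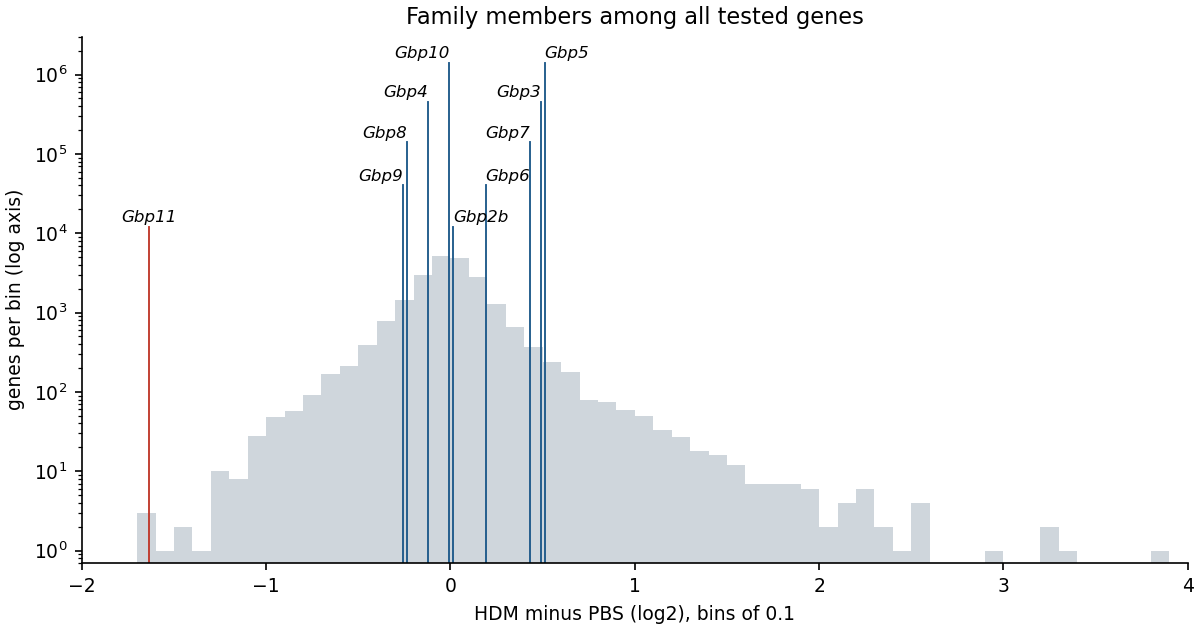
Number of genes (vertical log axis) by HDM minus PBS difference (horizontal axis, log2, bins of 0.1) for all 22180 genes, with a line at the difference of each family member (height has no meaning). Gbp11 at −1.64 lies in the far lower tail, and the other 9 members lie between −0.26 and 0.51.

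The genes whose signal over the 6 arrays was most like that of Gbp11 were sought among 1240 genes with a range over the arrays of at least 0.5 times its own. Predicted genes, small RNAs, olfactory and vomeronasal receptor genes, and immunoglobulin and T cell receptor segments were left out beforehand. A gene of those kinds could be more like Gbp11 than the 5 named here. They were Gzma, the protease granzyme A (Pearson r = 0.996, Spearman rho = 0.943), St8sia6, a sialyltransferase (0.996 and 0.943), Aff3, a nuclear protein of lymphoid cells (0.996 and 0.943), Ranbp10, a RAN-binding protein (0.995 and 1.00), and Pde2a, a cyclic nucleotide phosphodiesterase (0.994 and 1.00). All 6 arrays enter each r, and the difference between the groups makes up most of it. Gzma had 5.51, 5.57 and 6.18 in HDM arrays, against 7.33, 7.21 and 7.61 in PBS arrays. As for Gbp11, replicate 3 was the highest of each group. Within the family the r with Gbp11 was highest for Gbp9 (0.531) and lowest for Gbp5 (−0.866) and Gbp7 (−0.863).

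The interferon gamma pathway that induces the family was measured in the same arrays. Ifng, the cytokine gene itself, had 8.72, 8.59 and 9.91 in HDM arrays, against 8.98, 9.06 and 9.54 in PBS arrays, and did not pass (−0.12 ± 0.33, limma's adjusted p = 0.907). Of 15 measured genes of interferon gamma signalling, 2 fell and 13 did not pass, where 1.56% of all genes fell. Ifngr2, the signalling chain of the receptor, had 10.41, 10.47 and 11.03 in HDM arrays, against 11.43, 11.76 and 11.63 in PBS arrays. The groups were apart, and the difference was −0.97 ± 0.17 (limma's adjusted p = 0.0218). Jak1, the kinase bound to the ligand-binding chain, differed by −0.29 ± 0.06 (limma's adjusted p = 0.0299).

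Ifngr1, the ligand-binding chain, differed by −0.18 ± 0.15 (limma's adjusted p = 0.609). Irf1, a transcription factor that interferon gamma induces, had 9.55, 9.44 and 10.13 in HDM arrays, against 10.29, 10.18 and 10.17 in PBS arrays, and did not pass (−0.51 ± 0.17, limma's adjusted p = 0.164). HDM replicate 3 lay just below the PBS values and the other HDM values lay further down. Without HDM replicate 3 Irf1 passed (−0.72, limma's adjusted p = 0.00543), and the lower calls over all genes rose from 345 to 722. The list had a median difference of −0.12, beside −0.01 over all genes. With the replicate block, 3 fell (Ifngr2, Jak1 and Pias1) and 1 rose (Jak2), where 6.01% and 5.95% of all genes did. Ifngr2 lost its call with any array other than HDM replicate 3 left out, at limma's adjusted p of up to 0.114. Jak1 lost its call without either replicate 1 or either replicate 2, at up to 0.14. Dropping a replicate 1 or replicate 2 array also cut the lower calls over all genes, from 345 to between 41 and 70. Without PBS replicate 3 there were 347. With 1 array left out the difference stayed between −1.17 and −0.86 for Ifngr2 and between −0.31 and −0.27 for Jak1.

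Interferon gamma target genes other than GTPases gave 0 calls among 21 measured genes with limma, and 3 at an unadjusted p below 0.05. Over all genes these shares were 3.95% and 17.8%. The median difference was 0.08, with the largest sizes for Irf1 and for Icam1, an adhesion molecule (0.47 ± 0.17, limma's adjusted p = 0.178, 0.00692 with the replicate block). With the block, Icam1 was the 1 gene of the list that rose and 0 fell, where 5.95% of all genes rose and 6.01% fell. The list also held the antigen-processing genes Tap1, Psmb8 and B2m, none of which passed. Among 28 measured type I interferon-stimulated genes, limma also gave 0 calls, and 4 genes had an unadjusted p below 0.05, beside the same 3.95% and 17.8%. Rsad2, the antiviral protein viperin, differed by 0.51 ± 0.13 (limma's adjusted p = 0.0851) and Cmpk2, a nucleotide kinase induced with it, by 0.47 ± 0.17 (limma's adjusted p = 0.197). With the replicate block 4 rose, Rsad2, Stat2, Cmpk2 and Eif2ak2, and 1 fell, Ifnar1, where 5.95% and 6.01% of all genes did.

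A mixed list of immunity-related GTPases and other interferon-induced GTPases gave 0 calls among 11 measured genes with limma and 3 at an unadjusted p below 0.05. Over all genes these shares were 3.95% and 17.8%. Iigp1, an immunity-related GTPase also called Irga6, had 7.94, 8.14 and 8.49 in HDM arrays, against 8.69, 8.83 and 8.89 in PBS arrays. The groups did not overlap, as with Gbp11, but the difference was −0.61 ± 0.15 and did not pass (limma's adjusted p = 0.0647). A further member, 9930111J21Rik2, differed by 0.48 ± 0.24 (limma's adjusted p = 0.365). With the replicate block, Iigp1 and Irgm2 fell and Mx1 and 9930111J21Rik2 rose, where 6.01% of all genes fell and 5.95% rose. The list median was 0.17 with differences from −0.61 to 0.48, so this list too held members of either sign. Of its 17 listed genes, 6 were not analysed here.

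Genes that act with or after the guanylate-binding proteins were counted in the same way. Of 15 measured inflammasome and pyroptosis genes, 1 rose and 14 did not pass, where 2.39% of all genes rose. That gene was Casp1, the inflammatory caspase, with 8.97, 9.28 and 8.59 in HDM arrays, against 8.11, 8.13 and 8.02 in PBS arrays (0.86 ± 0.17, limma's adjusted p = 0.0331). With the replicate block 4 rose, Aim2, Casp1, Casp4 and Naip2, where 5.95% of all genes rose. Of 15 measured autophagy and ubiquitin-like factors that help to place guanylate-binding proteins on membranes, 1 rose, Plaat3, a phospholipase, with 8.32, 8.38 and 8.16 in HDM arrays, against 7.87, 7.74 and 7.54 in PBS arrays (0.57 ± 0.12, limma's adjusted p = 0.0387). With the block, Gabarap, Gabarapl1 and Plaat3 rose, again beside 5.95% of all genes. Leaving out any array other than HDM replicate 3 took the call from Casp1 and from Plaat3, with limma's adjusted p of up to 0.129 and 0.161. Dropping any of these arrays also cut the higher calls over all genes, from 531 to between 177 and 410. With 1 array left out the difference ran from 0.69 to 1.04 for Casp1 and from 0.49 to 0.65 for Plaat3.

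**Figure D4:**
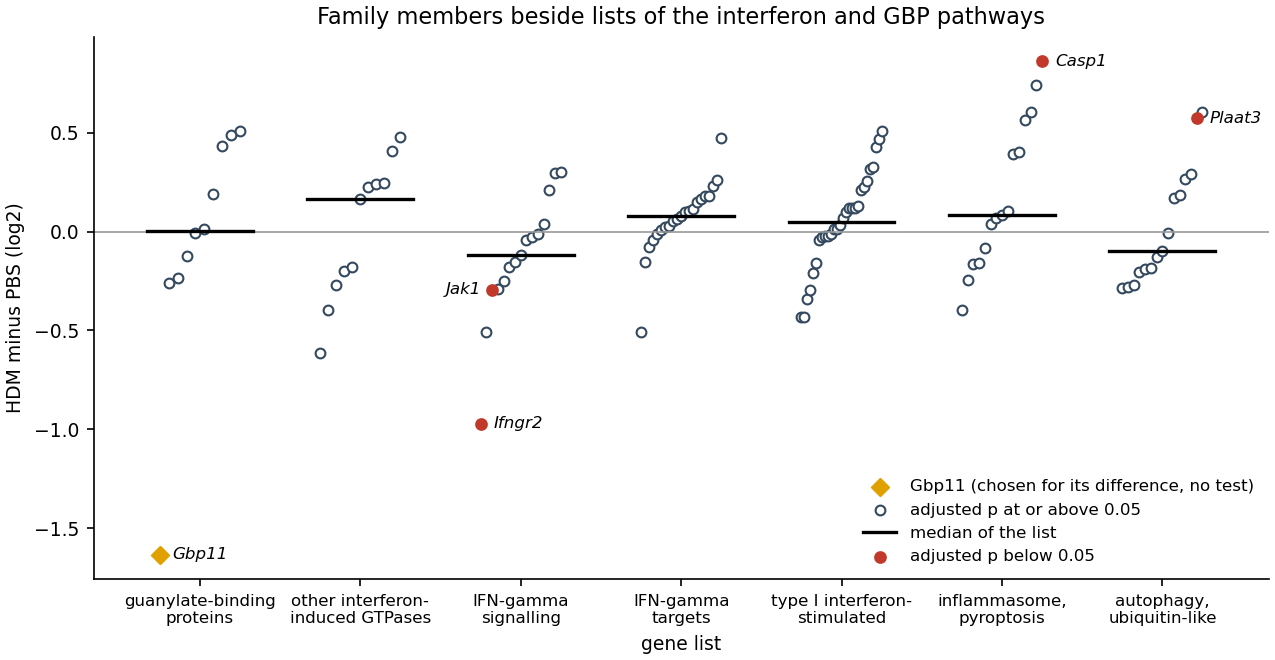
HDM minus PBS difference on the log2 scale (vertical axis) of each guanylate-binding protein gene and of each gene of 6 lists (horizontal axis); filled red points passed limma at an adjusted p below 0.05, open points did not, the yellow diamond is Gbp11, and bars are list medians. The called genes are Ifngr2, Jak1, Casp1 and Plaat3, and the median of the family lies at 0.0033.

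Markers of the sorted cells and of other lung cells were measured beside the family. For their counts, 2.39% of all genes were called higher and 1.56% lower, and with the replicate block 5.95% and 6.01%. The gate as labelled was set to remove macrophages by F4/80 and CD11b, endothelial cells by the lack of CD45, and most natural killer, B and CD8 T cells by the lack of CD4. Cd4 (0.15 ± 0.07, limma's adjusted p = 0.294), Ptprc, which encodes CD45 (−0.07 ± 0.07, limma's adjusted p = 0.655), Itgam, which encodes CD11b (−0.02 ± 0.23, limma's adjusted p = 0.984), and Adgre1, which encodes F4/80 (0.39 ± 0.24, limma's adjusted p = 0.469), did not pass. Cd3g, a T cell receptor subunit, passed with the block only (0.19 ± 0.06, limma's adjusted p = 0.151, 0.0308 with the block). Macrophage markers rose in 2 of 9 genes, Retnla and Chil3, and in 3 with the replicate block. The block added Csf1r (0.52 ± 0.25, limma's adjusted p = 0.34, 0.0488 with the block). Of the 9 differences, 8 were positive and 1 was negative. The summed linear signal of these markers was 6753 to 8816 in HDM arrays, against 3882 to 4365 in PBS arrays. Retnla and Chil3 enter these sums and keep them from overlapping. Markers of natural killer and cytotoxic cells fell in 3 of 8 genes, Gzma, Prf1 and Klrd1, with or without the block, with sums of 2687 to 4463 in HDM arrays, against 3154 to 4878 in PBS arrays. Gzmb, the protease granzyme B, was the 1 gene of that list with a positive difference: it had 8.98, 9.95 and 10.35 in HDM arrays, against 8.04, 8.26 and 9.08 in PBS arrays, was higher in HDM in all 3 pairs, and passed with the block only (1.30 ± 0.37, limma's adjusted p = 0.112, 0.00181 with the block). Endothelial markers had negative differences in all 6 measured genes and fell in 1, Pecam1, and in 4 with the block, which added Cdh5, Kdr and Tek (limma's adjusted p = 0.00979, 0.0235 and 0.0163 with the block, against 0.482, 0.451 and 0.424 without it), with sums of 2571 to 4077 in HDM arrays, against 3899 to 5287 in PBS arrays. Dendritic cell markers rose in 1 of 5, Itgax, with sums of 728 to 945 in HDM arrays, against 612 to 661 in PBS arrays. Itgax keeps these sums from overlapping, and of the 5 differences 2 were positive and 3 negative. The 4 B cell markers and the 2 CD8 markers gave 0 calls with limma, with or without the block, and 0 at an unadjusted p below 0.05, and their sums overlapped between the groups. Several of these cell types are known to express guanylate-binding proteins, and their part in the differences of the family was not tested.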

How the data were processed

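Gene expression was measured on 6 arrays, 3 of HDM and 3 of PBS samples. The authors deposited log2 signals per probe set made with RMA, a method that corrects background, equalises the arrays by quantile normalization and summarises probes; the submitters' processing notes name it without a version. A change in total RNA per cell is not visible after it. Of 33960 probe sets, 23521 had exactly 1 gene symbol, 1814 several and 8625 none in the platform annotation. Where a gene had several probe sets (1082 genes), the brightest by mean over the arrays stood for it, which gave 22180 genes without a filter. At most 5 values were identical between any 2 arrays.

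Differences, HDM minus PBS, came from limma 3.58.1 under R 4.3.3 (linear fit, moderated with an intensity trend, two-sided, Benjamini-Hochberg over 22180 genes, threshold 0.05); SEs and 95% intervals use limma's moderated spread. The fit was tested on simulated data. After subtracting group means, same-numbered HDM and PBS arrays correlated over the genes at 0.428, 0.172 and 0.531 for numbers 1, 2 and 3. Differently numbered arrays correlated at −0.5 to 0.246. HDM replicate 2 correlated more with PBS replicate 1 (0.246) than with PBS replicate 2, so the values do not single out pair 2. Each same-numbered value was above the minimum of 0.1, so the replicate block is given where it changes a call. The labels state no pairing. Members and lists were chosen with earlier results of these data known. Named genes were all members, up to 4 called genes per list (the 2 largest where none was called), fixed pathway and gate genes, the 5 genes most like Gbp11 and the flanking genes. Predicted genes and small RNAs were passed over in finding the genes most like Gbp11 and the flanking genes. Inmt and genes named only for a block result or as markers were chosen after their values were seen. Gene order, biotypes and promoters came from RefSeq GRCm38.p6; the array's own build was not given in the sources used here.

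Alternatives were filters on dim genes, repeated quantile normalization, median centring, no intensity trend, array weights, averaged probe sets, adjustment over all probe sets with 1 symbol, the replicate block, and each array dropped in turn. Dropping the arrays numbered 3 together was added after seeing the data.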

Additional observations from a re-analysis of the deposited data

How the results depend on the processing

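Gbp11 kept its sign and moved by less than its replicate spread (SD 0.219) under all 16 alternatives, from −1.79 to −1.55 with 1 array left out. Among the other 9 members the count higher was 0 except with the replicate block (3), and the count lower was 0 except without both arrays numbered 3 (1, Gbp9, −0.36, limma's adjusted p = 0.0375); with 1 array left out both counts stayed at 0. The sign of Gbp2b turned to −0.058 with array weights and to −0.085 without both arrays numbered 3, and ran from −0.15 to 0.14 with 1 array left out. That of Gbp10 turned to 0.019 with repeated quantile normalization, 0.014 with array weights and 0.00039 without both arrays numbered 3, and ran from −0.070 to 0.032 with 1 array left out. With 1 array left out Ifng ran from −0.54 to 0.12, Itgam from −0.25 to 0.15, Abcg3 from −0.30 to 0.14 and Lrrc8b from −0.40 to 0.028.

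For interferon gamma signalling, the 2 lower genes became 1 with repeated quantile normalization (with 1 higher), 1 without the intensity trend, 4 with array weights and 5 without both arrays numbered 3, and 0 to 3 with 1 array left out; with the block 1 was higher. Jak1 lost its call with repeated quantile normalization (limma's adjusted p = 0.0651) and without the trend (0.0898). The mixed list of GTPases had 1 lower among genes above the median, 1 higher and 1 lower with array weights, and 2 and 2 with the block. It had 1 and 2 without both arrays numbered 3, and 0 to 2 lower with 1 array left out. Other interferon gamma targets had 1 lower with array weights, 1 higher with the block, 1 higher and 1 lower without both arrays numbered 3, and 0 to 1 lower with 1 array left out. Type I interferon-stimulated genes had 1 higher with array weights, 4 higher and 1 lower with the block and 2 and 2 without both arrays numbered 3. The 1 higher inflammasome gene became 3 among genes above the median, 3 with array weights, 4 with the block, 4 without both arrays numbered 3 and 0 to 3 with 1 array left out. The 1 higher autophagy or ubiquitin-like gene became 2 among genes above the median, 0 with centred medians, 2 with array weights, 3 with the block, 3 without both arrays numbered 3 (with 2 lower), and 0 to 1 with 1 array left out (0 to 1 lower). Calls over all genes moved too, beside which these counts are to be read. The main fit called 531 higher and 345 lower. Repeated quantile normalization gave 558 and 357, no trend 534 and 342 and centred medians 453 and 310. Array weights gave 914 and 923, the block 1319 and 1334, and leaving out both arrays numbered 3 gave 1250 and 1326. Of 11090 genes above the median, 628 and 557 were called. With 1 array left out the calls ran from 177 to 845 and from 41 to 722. The cause of these changes was not tested. Signal over background could not be judged for any member.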
